A study of Mus musculus with 24 samples.

Results

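The genes described here are 9 markers of the extraembryonic and primitive endoderm, Gata4, Gata6, Sox17, Sox7, Dab2, Cubn, Amn, Pdgfra and Lrp2, chosen by name from the 54242 gene symbols of the RNA-seq table. The choice was made with earlier results of these data known. All 9 were listed, and 8 of them passed the filter on low values that left 16447 genes to test (log2(TPM + 1) averaging 0.5 or more across the 24 libraries). Sox7 did not pass. The table comes from mouse CGR8 embryonic stem cells (ESCs), an established line, and holds 24 libraries in 8 groups of 3. Cells received a pool of non-targeting siRNAs (si-CTL) or a pool against Rsl24d1 (si-Rsl24d1), a gene studied as a ribosome biogenesis factor of the large subunit, without or with rescue, that is, doxycycline-induced expression of an ectopic RSL24D1. They were kept with serum and LIF (day 0) or treated with 10 nM retinoic acid (RA) for 4 days (day 4).

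All 8 groups are CGR8 cells treated with siRNA, and they differ in the siRNA pool, the doxycycline and the culture. For cells that got no doxycycline the labels speak of an empty vector, whereas the methods of the study have 1 engineered line in both cases. The design text has LIF together with RA, and the methods have RA without LIF. The sources also disagree on the library kit (poly-A or total RNA) and on the time of collection, and these points were not examined in the values. Replicates are called independent triplicates in the design text.

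The primitive endoderm is the layer of the blastocyst that covers the pluripotent epiblast and later forms the visceral and parietal endoderm of the yolk sac. GATA6 and GATA4 are zinc finger transcription factors that start and maintain this lineage, and SOX17 and SOX7 are related HMG box factors that act with them. PDGFRA is a receptor tyrosine kinase on the surface of primitive endoderm cells. DAB2 is an adaptor that links cargo receptors to clathrin, and it serves the large receptors megalin (Lrp2) and cubilin (Cubn), the latter of which needs amnionless (Amn) to reach the apical membrane of visceral endoderm. Several of these genes are also expressed elsewhere, Pdgfra in mesenchyme, Gata4 and Gata6 in the heart, and Sox7 and Sox17 in endothelium and definitive endoderm. RA is long known to drive embryonal carcinoma and stem cells toward endoderm-like fates in some culture conditions.

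Promoter windows of the members were read from RefSeq on GRCm38.p6, 250 bases before to 50 bases after the annotated start, because several members, Dab2, Cubn and Pdgfra among them, followed each other closely over the libraries. Windows were found for 5 members, Cubn, Lrp2, Pdgfra, Amn and Dab2, and the last of these has a pair of alternative starts. Gata4, Gata6, Sox17 and Sox7 have no entry in the table. Each window was searched on both strands for GATAA, a core of GATA factor sites, for ACAAT, a core of SOX factor sites, and for AGGTCA, a half-site of RA and other nuclear receptors. The upstream parts for Dab2, the member with the highest mean level over all libraries, and Cubn, the member with the largest ratio of TPM between day 4 and day 0 in si-CTL cells without rescue, are shown 5′ to 3′ on the strand of the gene, with the GATAA match in capitals. Dab2 is shown at chr15:6299539-6299788 (plus strand) and Cubn at chr2:13491877-13492126 (minus strand).
Dab2: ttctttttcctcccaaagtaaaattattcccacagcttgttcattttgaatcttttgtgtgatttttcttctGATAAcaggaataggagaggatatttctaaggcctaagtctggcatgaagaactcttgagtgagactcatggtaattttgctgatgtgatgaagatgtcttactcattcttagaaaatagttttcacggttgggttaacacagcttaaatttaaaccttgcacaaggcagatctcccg
Cubn: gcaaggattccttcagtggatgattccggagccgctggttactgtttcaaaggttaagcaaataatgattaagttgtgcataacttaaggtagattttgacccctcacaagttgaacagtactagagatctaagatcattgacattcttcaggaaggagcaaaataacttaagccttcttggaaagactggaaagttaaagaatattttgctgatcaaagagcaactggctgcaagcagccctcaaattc
The Dab2 window at this start held 2 GATAA matches, at -178 and at 14 bases relative to the start, where 25.4% of all 32851 windows held at least 1 and 5.27% held at least 2. No other member window held GATAA, and no member window held ACAAT, found in 31.0% of all windows, or AGGTCA, found in 16.3%. These are matches of letters in short windows and were not tested as binding sites.

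Rsl24d1, the targeted gene, was checked first. At day 0 without rescue, si-CTL cells had a log2(TPM + 1) of 7.15 ± 0.06 (SD, n = 3) and si-Rsl24d1 cells one of 5.20 ± 0.11, whereas with rescue the values were 7.25 ± 0.06 and 6.75 ± 0.17. At day 4 it was 6.63 ± 0.04 in the libraries labelled si-CTL and 6.59 ± 0.08 in those labelled si-Rsl24d1, a difference of -0.04 (adjusted p = 0.66 from limma), and 6.89 ± 0.08 and 7.04 ± 0.04 with rescue. The Rsl24d1 level at day 4 therefore does not check the siRNA label, and each siRNA difference at day 4 given here is one between libraries labelled si-Rsl24d1 and si-CTL. TPM sum to 1000000 in every library and keep no read number, so depth is unknown. In bulk RNA, fewer cells of a type and less RNA per cell cannot be told apart.

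The 9 markers were weakly expressed. Dab2 and Lrp2 led, with group means of 2.95 to 23.5 TPM for Dab2 and 5.25 to 8.49 TPM for Lrp2. The other 7 stayed below 7 TPM in every group mean, and Sox7 below 1 TPM. No member was listed at 0 in any library, the lowest value being 0.0479 TPM of Sox17 in 1 si-CTL library at day 0. Because TPM is scaled by transcript length, these levels can be compared between genes. Summed over the 9 genes, day 0 libraries held 10.5 to 18.9 TPM. At day 4 the sums were 22.7 to 28.7 TPM in si-CTL and 41.0 to 55.6 TPM in si-Rsl24d1 libraries without rescue, and 29.0 to 34.8 TPM and 39.8 to 43.4 TPM with rescue. In both pairs every library labelled si-Rsl24d1 was above every si-CTL library, and most of the sum was Dab2 and Lrp2.

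**Figure D1:**
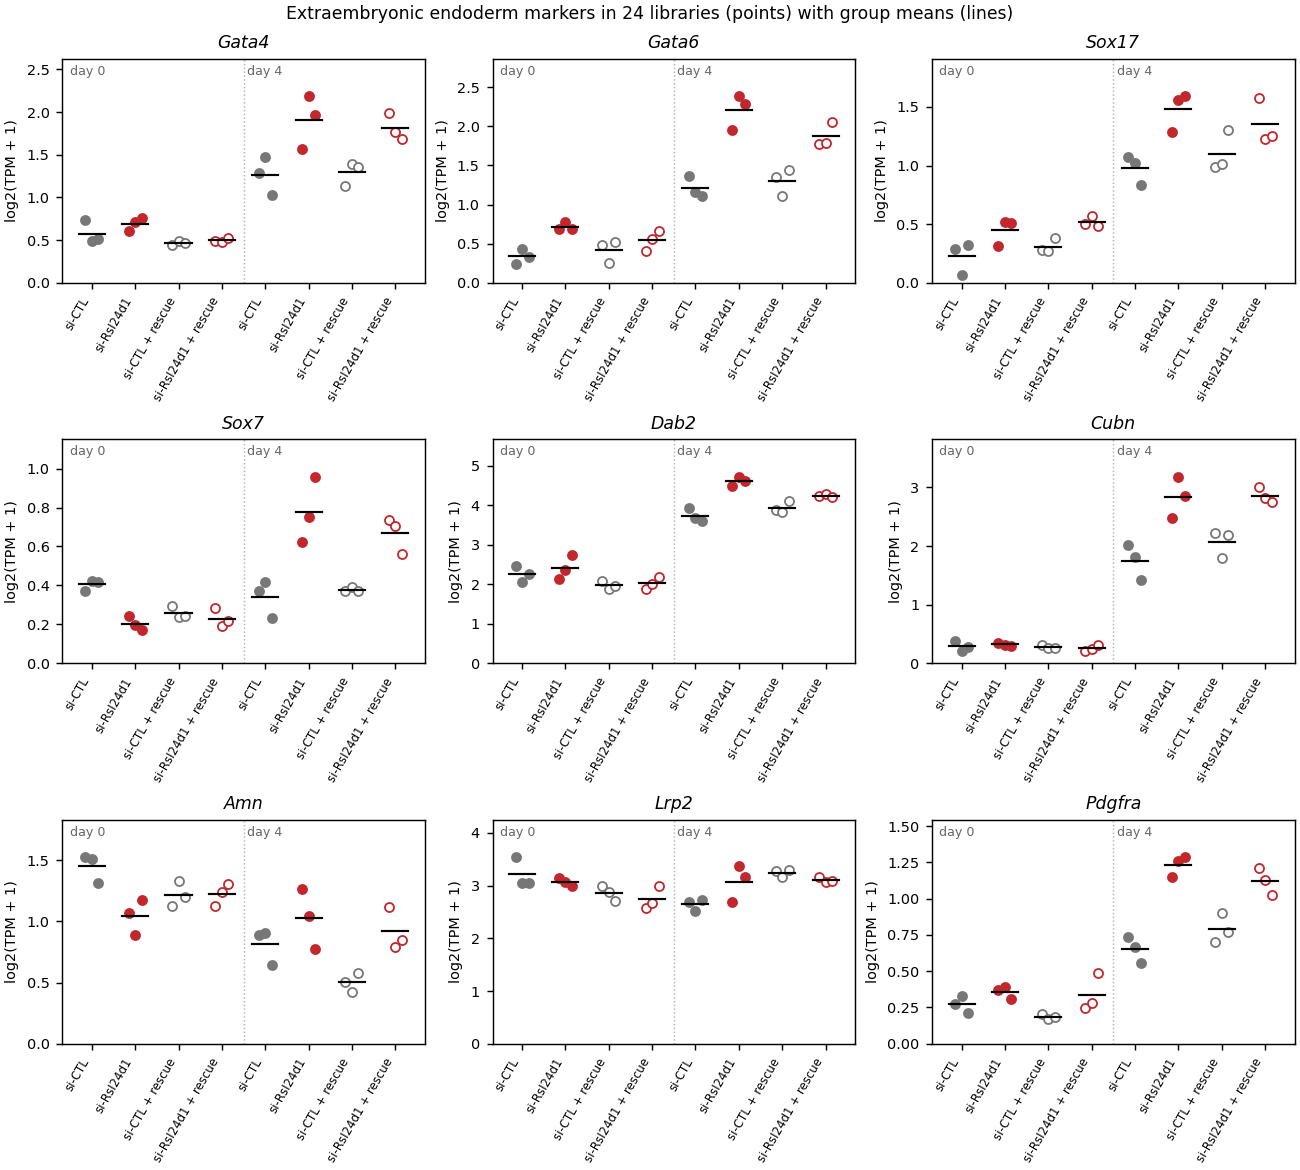
Levels of the 9 markers as log2(TPM + 1) on the vertical axis, with 1 panel per gene and the 8 groups along the horizontal axis (day 0 left and day 4 right of the dotted line). Points are single libraries (grey si-CTL, red si-Rsl24d1, open with rescue) and lines are means of 3. For Gata6, Cubn, Dab2, Gata4, Pdgfra and Sox7, the red points at day 4 lie above the grey ones both without and with rescue, whereas those of Lrp2 overlap without rescue and lie below the grey ones in mean with rescue.

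The first comparison asks how the markers changed over 4 days of RA in si-CTL cells. Genes are called, and said to have risen or fallen, when the adjusted p from limma is below 0.01 and the change is over 1.8-fold on the log2(TPM + 1) scale, that is, 0.848. Cubn, Dab2 and Gata6 rose in si-CTL cells without rescue, and no member fell. Cubn was at 0.298, 0.154 and 0.220 TPM in the 3 day 0 libraries and at 3.07, 2.50 and 1.66 TPM in the 3 day 4 libraries. All day 4 libraries lay far above those of day 0. The difference was 1.46 ± 0.15 (SE) on the log2(TPM + 1) scale (adjusted p = 5.17e-08 from limma), and the ratio of the mean TPM was 10.8.

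Dab2, the endocytic adaptor, was at 4.53, 3.15 and 3.82 TPM at day 0 and at 14.3, 11.8 and 11.2 TPM at day 4. The ranges were again apart, and the difference was 1.48 ± 0.13 (adjusted p = 8e-09 from limma). Gata6 was at 0.188, 0.356 and 0.259 TPM at day 0 and at 1.58, 1.24 and 1.16 TPM at day 4, a difference of 0.88 ± 0.12 (adjusted p = 1.74e-06 from limma). This value is close to the fold threshold. It was 0.83 without day 0 si-CTL replicate 1 and 0.80 without day 4 si-CTL replicate 1, and neither was called.

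Sox17, Gata4 and Pdgfra passed the adjusted p but not the fold threshold. Sox17 differed by 0.75 (adjusted p = 6.48e-06 from limma), Gata4 by 0.68 (adjusted p = 1.06e-04) and Pdgfra by 0.38 (adjusted p = 1.89e-04), with ratios of the mean TPM of 5.61, 2.85 and 2.75. Of all tested genes, 24.1% passed the adjusted p with a positive and 36.7% with a negative value. Sox17, Gata4 and Pdgfra lay near or below 1 TPM, where adding 1 to the TPM shrinks a change. Sox7 was at 0.295, 0.340 and 0.337 TPM at day 0 and at 0.295, 0.336 and 0.175 TPM at day 4, and these ranges overlapped.

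The receptor genes Amn and Lrp2 had negative differences. Amn was at 1.88, 1.85 and 1.49 TPM at day 0 and at 0.847, 0.877 and 0.560 TPM at day 4, with no overlap. Its difference of -0.64 (adjusted p = 8.06e-05 from limma) did not reach the fold threshold. Lrp2 was at 10.6, 7.29 and 7.22 TPM at day 0 and at 5.40, 4.71 and 5.63 TPM at day 4, a difference of -0.57 (adjusted p = 0.00208). The genes of the megalin, cubilin and amnionless receptor thus had differences of unlike sign in si-CTL cells.

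Of all tested genes, 15.0% were called in either direction in this comparison (6.77% higher and 8.24% lower), against 3 of 8 members tested, all higher. Ranges were apart for 6 of the 9 members with higher and 2 with lower values, and for 28.9% and 43.5% of all tested genes. Sox17, Cubn and Pdgfra had a mean below 0.5 over the day 0 libraries and passed the filter through day 4, so a day difference was built into their selection. This holds for each of the 4 day comparisons, and their calls of these 3 genes and counts of members are descriptions. With rescue, si-CTL cells gave the same 3 called members, Dab2 (1.96), Cubn (1.79) and Gata6 (0.88), beside 15.6% of all tested genes (10.7% higher). There, Gata6 was not called without day 0 replicate 2 (0.79), without day 4 replicate 3 (0.81) or with median of ratios scaling (0.82), and Gata4, at 0.83, was called at 0.91 without day 4 replicate 1. Amn differed by -0.71 (adjusted p = 2.43e-05 from limma), where 22.4% of all tested genes passed with a negative value, and Lrp2 by 0.39 (adjusted p = 0.0272).

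In si-Rsl24d1 cells without rescue, 6 members rose between day 0 and day 4, beside 14.1% of all tested genes called (7.93% higher). Of these, Cubn, Sox17 and Pdgfra are the genes that passed the filter through day 4. The differences were Cubn (2.52), Dab2 (2.19), Gata6 (1.49), Gata4 (1.22), Sox17 (1.03) and Pdgfra (0.88). The Pdgfra value was 0.84 and not called with median of ratios scaling. Pdgfra was at 0.290, 0.314 and 0.238 TPM at day 0 and at 1.22, 1.40 and 1.44 TPM at day 4, and Cubn went from 0.279, 0.245 and 0.232 TPM to 4.60, 8.06 and 6.25 TPM. Neither gene had overlapping ranges. In all, 7 of the 9 members were separated with higher values, and so were 34.3% of all tested genes. Amn (-0.02) and Lrp2 (0.00) had adjusted p values of 0.911 and 1. With rescue, Cubn (2.61), Dab2 (2.22), Gata6 (1.32) and Gata4 (1.31) rose, beside 14.9% of all tested genes (9.34% higher). Sox17 (0.83) and Pdgfra (0.78) passed only the adjusted p, as 32.4% of all tested genes did with a positive value. Each of these was called without 1 library, Sox17 at 0.86 without day 0 replicate 2, 0.89 without day 4 replicate 2 and 0.88 without day 4 replicate 3, and Pdgfra at 0.86 without day 0 replicate 3.

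**Figure D2:**
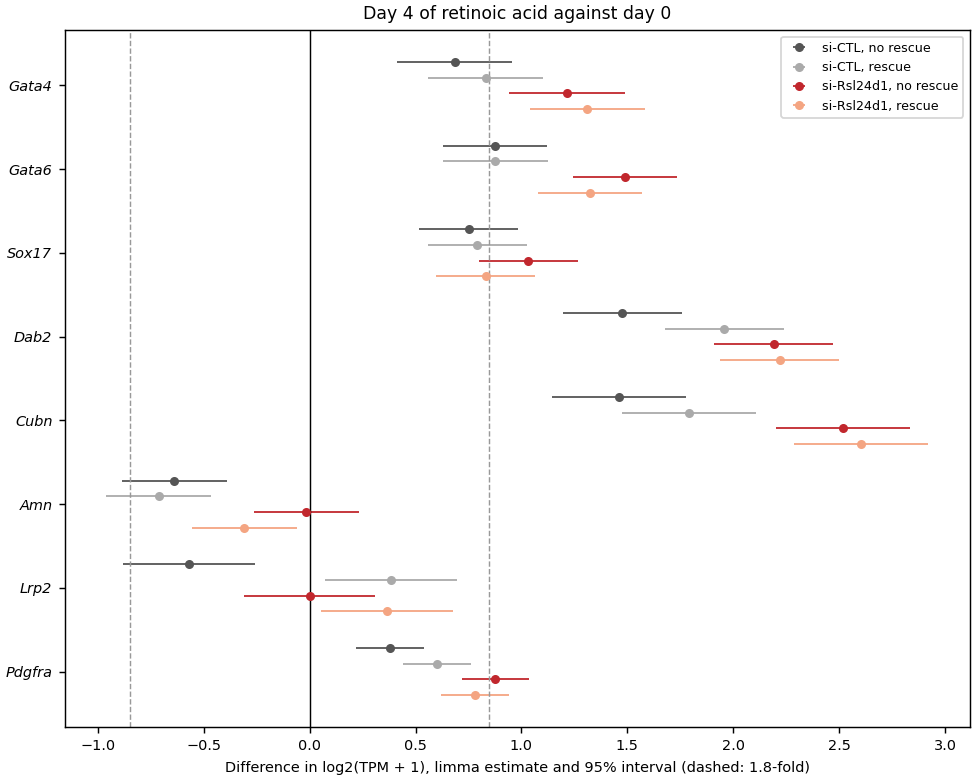
Differences between day 4 and day 0 in log2(TPM + 1) on the horizontal axis for the 8 tested markers, as limma estimates (points) with 95% intervals (bars), in 4 kinds of cells by colour. Dashed lines mark the 1.8-fold threshold. Dab2 and Cubn lie beyond it in all 4, between 1.46 and 2.61, whereas Amn lies at or below 0.

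The second comparison asks how libraries labelled si-Rsl24d1 differed from si-CTL libraries at day 4. Without rescue, Cubn, Gata6 and Dab2 rose and no member fell. Across all tested genes, 1.63% were called in either direction (1.45% higher and 0.182% lower), against 3 of 8 members, all higher. With the adjusted p alone, 6 of 8 members were higher and 0 lower, where 24.9% of all tested genes were higher and 6.04% lower. The median difference was 0.612 over the 8 members and 0.129 over all tested genes, so most genes sat slightly higher in these libraries. As the members were chosen with earlier results of these data known, these counts and medians are descriptions.

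Among the transcription factors, Gata6 was at 1.58, 1.24 and 1.16 TPM in the si-CTL libraries and at 2.88, 4.21 and 3.88 TPM in the si-Rsl24d1 libraries. The lowest si-Rsl24d1 library was well above the highest si-CTL library. The difference was 0.99 (95% interval 0.75 to 1.24, adjusted p = 3.31e-06 from limma), which is 0.864 above the median of all genes. Gata4 was at 1.44, 1.77 and 1.04 TPM in si-CTL and at 1.97, 3.54 and 2.90 TPM in si-Rsl24d1 libraries, a difference of 0.64 (0.37 to 0.92, adjusted p = 6.8e-04 from limma). The fit shares 1 spread per gene over all 8 groups. The SD of Gata4 was 0.22 and 0.31 in these groups against 0.02 to 0.13 in the day 0 groups. Its interval is therefore narrower than these libraries alone would give. Sox17 was at 1.11, 1.03 and 0.786 TPM and at 1.44, 1.95 and 2.01 TPM, a difference of 0.50 (0.27 to 0.74, adjusted p = 0.00146 from limma). The ranges of both genes were apart, although by a small margin, and neither reached the fold threshold.

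Sox7 was at 0.295, 0.336 and 0.175 TPM in si-CTL and at 0.537, 0.685 and 0.942 TPM in si-Rsl24d1 libraries. Its ranges did not overlap either. In a fit without the filter, over 35764 genes, the difference was 0.44 ± 0.07 (SE, adjusted p = 1.37e-04 from limma), below the fold threshold, and the ratio of the mean TPM was 2.68. The 4 factors thus had differences of like sign and of 0.44 to 0.99 on the log2(TPM + 1) scale.

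In the receptor group, Cubn was at 3.07, 2.50 and 1.66 TPM in si-CTL and at 4.60, 8.06 and 6.25 TPM in si-Rsl24d1 libraries. Its difference of 1.09 (0.78 to 1.41, adjusted p = 1.95e-05 from limma) was the largest among the members. In a fit of these groups alone the same difference had an adjusted p of 0.0163 from limma and was not called. The SD of Cubn was 0.31 and 0.35 in these groups against 0.02 to 0.08 in the day 0 groups, which share its spread in the main fit. Dab2 was at 14.3, 11.8 and 11.2 TPM and at 21.5, 25.4 and 23.5 TPM, a difference of 0.87 (0.59 to 1.15, adjusted p = 5.93e-05 from limma). No si-CTL library of Dab2 came near the si-Rsl24d1 libraries, yet the value sits at the fold threshold. It was 0.84 without si-CTL replicate 2, 0.81 without si-CTL replicate 3, 0.81 without si-Rsl24d1 replicate 2, and 0.71 with median of ratios scaling, and was then not called. Pdgfra was at 0.664, 0.590 and 0.473 TPM and at 1.22, 1.40 and 1.44 TPM, a difference of 0.58 (0.42 to 0.74, adjusted p = 1.14e-05 from limma) with a ratio of the mean TPM of 2.35.

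Amn and Lrp2 were the members whose ranges overlapped. Amn was at 0.847, 0.877 and 0.560 TPM in si-CTL and at 1.40, 1.07 and 0.708 TPM in si-Rsl24d1 libraries (difference 0.22, adjusted p = 0.143 from limma). Lrp2 was at 5.40, 4.71 and 5.63 TPM and at 5.41, 9.29 and 7.93 TPM (0.43, adjusted p = 0.0247). For 7 of the 9 members the 3 si-Rsl24d1 libraries lay above the 3 si-CTL libraries, and this held for 37.1% of all tested genes. Within these groups, si-CTL replicate 3 was the lowest library for 8 of the 9 members, and si-Rsl24d1 replicate 1 was also the lowest for 8.

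With rescue, the difference between libraries labelled si-Rsl24d1 and si-CTL at day 4 had the same sign for 7 of the 8 tested members, and 0 were called, beside 0.730% of all tested genes. At an unadjusted p under 0.05 there were 7 members by limma, as for 25.5% of all tested genes, and with the adjusted p alone there were 3, all higher, where 2.33% of all tested genes were higher. Cubn was at 3.65, 2.49 and 3.57 TPM in si-CTL and at 7.05, 6.05 and 5.74 TPM in si-Rsl24d1 libraries with rescue, a difference of 0.79 (0.47 to 1.11, adjusted p = 0.00168 from limma). It was called at 0.86 without si-CTL replicate 1 and at 0.85 without si-CTL replicate 3. Gata6 differed by 0.57 (adjusted p = 0.0031) and Pdgfra by 0.33 (adjusted p = 0.00671). Gata4 (0.52), Amn (0.41), Dab2 (0.31), Sox17 (0.25) and Lrp2 (-0.14) had adjusted p values of 0.0121 to 0.612. Ranges were apart, with si-Rsl24d1 higher, for 7 of the 9 members, where 10.8% of all tested genes showed this.

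The test of whether the siRNA difference itself depended on rescue at day 4 called 0 of 8 members, beside 0.511% of all tested genes. By limma 4 of 8 members, and 41.6% of all tested genes, had an unadjusted p under 0.05. The differences of differences (with minus without rescue) were -0.57 for Lrp2 (adjusted p = 0.0494 from limma), -0.56 for Dab2 (adjusted p = 0.0344), -0.42 for Gata6 (adjusted p = 0.0608) and -0.25 for Pdgfra (adjusted p = 0.0924), while the median over all tested genes was -0.166. For Cubn it was -0.30 (95% interval -0.75 to 0.14) and for Gata4 -0.13 (-0.51 to 0.26). The intervals of Cubn, Gata4, Sox17 and Amn include 0, and those of the other 4 tested members exclude it before adjustment.

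**Figure D3:**
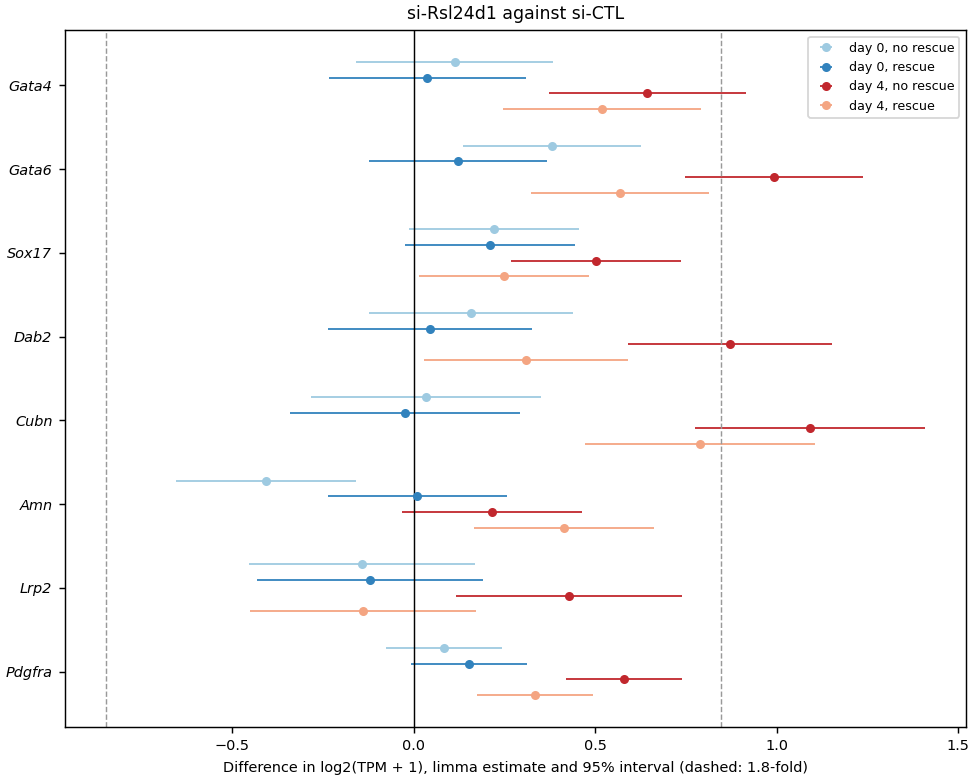
Differences between si-Rsl24d1 and si-CTL libraries in log2(TPM + 1) on the horizontal axis for the 8 tested markers, as limma estimates (points) with 95% intervals (bars), at both days without and with rescue. Dashed lines mark the 1.8-fold threshold. Only Cubn (1.09), Gata6 (0.99) and Dab2 (0.87) at day 4 without rescue lie beyond it, and the day 0 estimates lie between -0.41 and 0.38.

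At day 0, when Rsl24d1 itself was reduced, 0 of 8 members were called for the siRNA in cells that had no rescue, beside 4.18% of all tested genes. By limma 2 of 8 members, and 47.6% of all tested genes, had an unadjusted p under 0.05. Amn, the partner of cubilin, was at 1.88, 1.85 and 1.49 TPM in si-CTL cells and at 1.10, 0.853 and 1.26 TPM after si-Rsl24d1. The ranges were apart, and the difference of -0.41 (adjusted p = 0.00927 from limma) passed the adjusted p, as 16.1% of all tested genes did with a negative value, but not the fold threshold. Gata6 was at 0.188, 0.356 and 0.259 TPM in si-CTL cells and at 0.616, 0.708 and 0.619 TPM after si-Rsl24d1. Its ranges were also apart, with si-Rsl24d1 higher, and the difference was 0.38 (adjusted p = 0.0135 from limma). With 0.1 in place of 1 added to the TPM, which weighs such low levels more, the Gata6 difference was 1.05 (adjusted p = 0.00149) and was called.

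Sox7 went the other way at day 0. It was at 0.295, 0.340 and 0.337 TPM in si-CTL cells and, in the absence of rescue, at 0.182, 0.145 and 0.124 TPM after si-Rsl24d1, with no overlap (difference -0.20, adjusted p = 0.0371 from the limma fit without the filter). Cubn (0.03), Pdgfra (0.08), Gata4 (0.11), Lrp2 (-0.14), Dab2 (0.16) and Sox17 (0.22) had overlapping ranges. Of the 9 members 1 was thus separated with higher and 2 with lower values, where 23.8% and 27.3% of all tested genes were. In rescued cells 0 members were called and 0 had an unadjusted p under 0.05 by limma, beside 1.36% and 32.8% of all tested genes. The differences lay between -0.12 for Lrp2 and 0.21 for Sox17, and that of Amn was 0.01. Ranges were apart for 2 of the 9 members, Sox17 and Pdgfra, both higher in si-Rsl24d1 cells, as for 18.0% of all tested genes. The test of a change of the siRNA difference with rescue at day 0 called 0 of 8 members, beside 0.128% of all tested genes, and 1, Amn (0.42, adjusted p = 0.181 from limma), had an unadjusted p under 0.05, as did 17.6% of all tested genes.

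The siRNA difference at day 4 minus that at day 0 was tested as an interaction. Without rescue, all 8 tested members had positive values, and Cubn alone was called (1.06 ± 0.21 SE, adjusted p = 5.79e-04 from limma), beside 5.61% of all tested genes (2.90% with a positive value). With the adjusted p alone, 5 of 8 members passed, Cubn, Dab2 (0.71), Amn (0.62), Gata6 (0.61) and Pdgfra (0.50), where 22.1% of all tested genes passed with a positive value. The median over all tested genes was 0.142. Gata6, Cubn and Pdgfra lay below 1 TPM at day 0, where adding 1 to the TPM shrinks a difference. With 0.1 added in its place, Cubn was again the only member called. For Sox7, in the fit without the filter, the value was 0.64 ± 0.09 (adjusted p = 6.46e-05 from limma), from a lower level at day 0 to a higher one at day 4. With rescue, 0 members were called and 0 passed the adjusted p, beside 2.10% of all tested genes called, and by limma 4 members and 29.4% of all tested genes had an unadjusted p under 0.05. Cubn had the largest value there (0.81, adjusted p = 0.0115).

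The rescue difference, with minus without doxycycline, was read first in si-CTL cells. At day 0, 0 of 8 members and 0% of all tested genes were called, and by limma 2 members and 41.0% of all tested genes had an unadjusted p under 0.05. At day 4, 0 of 8 members were called, beside 0.0547% of all tested genes, and 3 members and 39.0% of all tested genes had an unadjusted p under 0.05 by limma. Lrp2, the megalin receptor, was at 5.40, 4.71 and 5.63 TPM without and at 8.63, 7.99 and 8.87 TPM with rescue at day 4. No library overlapped, and the difference was 0.61 (adjusted p = 0.0076 from limma), under the fold threshold. For 37.7% of all tested genes the ranges were apart in this direction, and 8.85% passed the adjusted p in it. The si-CTL cells without rescue were therefore the lowest group for Lrp2 at day 4, while the other 3 groups had means of 7.54 to 8.49 TPM. In cells labelled si-Rsl24d1, rescue gave 0 called members on either day, beside 0.280% of all tested genes at day 0 and 0.0851% at day 4, and 2 members had an unadjusted p under 0.05 by limma on each day, where 42.9% and 24.2% of all tested genes did. Dab2 differed with rescue by -0.39 at day 0 (adjusted p = 0.0327 from limma) and by -0.36 at day 4 (adjusted p = 0.0913). In si-CTL cells Dab2 differed with rescue by -0.28 at day 0 and by 0.20 at day 4. The medians over all tested genes at day 0 were -0.111 in si-Rsl24d1 and -0.123 in si-CTL cells, and at day 4 -0.0681 and 0.0913. The day 0 siRNA difference of Dab2 changed with rescue by only -0.11. In si-Rsl24d1 libraries at day 4, the Dab2 ranges of 21.5 to 25.4 TPM without and 17.6 to 18.5 TPM with rescue were apart, as for 18.6% of all tested genes. Comparisons that share a group, such as these and the siRNA comparisons, are not independent.

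Ordered by group mean, si-Rsl24d1 libraries at day 4 without rescue were highest for Gata6, Sox17, Sox7, Dab2, Gata4 and Pdgfra. Next came the rescued si-Rsl24d1 libraries. Of these 6 genes, only Dab2 had ranges of these neighbours that did not overlap. For Cubn the order was the reverse, with means of 2.86 with and 2.84 without rescue on the log2(TPM + 1) scale, and the ranges overlapped. Amn was highest in si-CTL cells at day 0 (1.45 ± 0.12) and lowest in rescued si-CTL libraries at day 4 (0.50 ± 0.08).

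Over the 24 libraries, Gata4, Gata6, Sox17, Dab2, Cubn and Pdgfra followed each other closely, with Pearson's r between 0.943 and 0.974 for their pairs on the log2(TPM + 1) scale. For example, r was 0.974 between Dab2 and Cubn and 0.951 between Gata4 and Gata6. Sox7 reached 0.761 to 0.858 with these 6 genes, Lrp2 0.156 to 0.263, and Amn -0.603 to -0.480. These values are descriptions of 24 libraries that share 8 groups, and the step between day 0 and day 4 contributes to them. After subtraction of the group means, r in the 12 day 4 libraries was 0.786 for Dab2 and Cubn, 0.745 for Gata4 and Sox17, 0.753 for Gata4 and Pdgfra, and -0.033 for Gata6 and Pdgfra. Single libraries of a group thus deviated together for some pairs and not for others.

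The genes outside the 9 whose levels over the 24 libraries were most like a member were read by Pearson's r. Cubn had Thbd (0.993), Megf10 (0.990) and Ednra (0.988), and 258 genes exceeded 0.95. Thbd encodes thrombomodulin, a surface protein of parietal endoderm and endothelium. Dab2 had Rusc2 (0.991), Col4a2 (0.990) and Tsc22d1 (0.990), of which Col4a2 encodes a chain of basement membrane collagen. Gata6 had Filip1l (0.984), Cldn1 (0.978) and Pgm5 (0.977), and Pdgfra had Filip1l (0.977), Nxf7 (0.976) and Pgm5 (0.975), so both share Filip1l and Pgm5. Gata4 had Igf2os (0.981), Foxc1 (0.974) and Foxq1 (0.972), and Sox17 had Cldn1 (0.962), C430049B03Rik (0.960) and Hoxa5 (0.960). Lrp2 had Kif5c (0.967), Ago2 (0.955) and Alg10b (0.951), and Amn had weaker partners, Pccb (0.864), Lck (0.862) and Rrp15 (0.851), with 0 genes over 0.95. With so many genes above 0.95 for Dab2 (519) and Cubn, their pattern is common in these libraries.

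Lists of related genes were read beside the members at day 4 without rescue. For the siRNA there, 1.45% of all tested genes were called higher and 0.182% lower, with a median of 0.129. For day 4 against day 0 in si-CTL cells without rescue, 6.77% were called higher and 8.24% lower. These shares apply to each list below. The parietal endoderm and basement membrane list, which holds chains of laminin and collagen IV, had 5 of 19 tested genes called higher in libraries labelled si-Rsl24d1 and 0 lower, and its median was 0.576. Lama1 rose by 1.12, Col4a1 by 1.10 and Nid1 by 1.00 (adjusted p = 2.01e-06, 5.89e-07 and 3.38e-07 from limma). With rescue 1 gene of this list was called, Srgn (0.97), beside 0.730% of all tested genes, and the median was 0.248. Between day 0 and day 4 in si-CTL cells without rescue 7 genes of the list rose and 0 fell, led by Srgn (2.81), which encodes a proteoglycan of secretory granules.

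The visceral endoderm list had 11 of 21 genes tested, with Spink1 (0.88) called higher, 0 lower, and a median of 0.205. Afp, Ttr and Apoa1, secreted products chosen from this list after their values were seen, had means below 1 TPM at day 4 without rescue. They hold little of the summed level of the list, and each was higher in mean in si-Rsl24d1 libraries. Afp was at a mean of 0.126 TPM in si-CTL and 0.172 TPM in si-Rsl24d1 libraries at day 4, Ttr at 0.338 and 0.739 TPM, and Apoa1 at 0.360 and 0.524 TPM. Ttr was listed at 0 in all day 0 libraries, and Fabp1 was listed at 0 in all libraries of 7 of the 8 groups. The endoderm regulators Foxa2 and Hnf4a had means of 0.372 and 0.698 TPM in si-CTL and 0.890 and 1.08 TPM in si-Rsl24d1 libraries. The whole visceral endoderm list summed to 642 to 668 TPM in si-CTL and 617 to 629 TPM in si-Rsl24d1 libraries at day 4. Its mean log2(TPM + 1) over all 21 genes went the other way, 1.88 to 1.92 in si-CTL and 2.11 to 2.21 in si-Rsl24d1 libraries. In both groups 11 of the 21 genes had means below 1 TPM. Of 12 other transcription factors of the extraembryonic endoderm 9 were tested and 0 were called. Klf6 at 0.47 and Nr2f2 at 0.41 passed the adjusted p alone, as 24.9% of all tested genes did with a positive value. Over the 4 days of RA in si-CTL cells without rescue, Nr2f2, an orphan nuclear receptor induced by RA, rose by 1.93 and Sox18 fell, and 0 other genes of that list were called.

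For the signals that act on this lineage, the FGF4 to ERK list had 0 of 11 genes called at day 4, with a median of 0.335. By the adjusted p alone 6 of its genes were higher, where 24.9% of all tested genes were. Fgfr2, an FGF receptor of primitive endoderm precursors, was at 9.96 TPM in si-CTL and 17.1 TPM in si-Rsl24d1 libraries, a difference of 0.72 (adjusted p = 5.83e-06 from limma). Over the 4 days of RA in si-CTL cells without rescue 3 genes of the list fell, Spry4 (-3.99), Spry2 and Fgf4 (-0.88), and 0 rose. In the list of PDGF ligands and the other receptor 0 of 5 were called at day 4. Pdgfa, the ligand of PDGFRA, was at 29.6 TPM in si-CTL and 30.1 TPM in si-Rsl24d1 libraries, a difference of 0.02 (adjusted p = 0.854 from limma), and Pdgfc differed by 0.70 (adjusted p = 3.96e-07). Of 12 tested partners and relatives of the megalin and cubilin receptor 0 were called at day 4, and Vldlr, a related lipoprotein receptor, differed by 0.75. Over the 4 days of RA in si-CTL cells without rescue 4 of the 12 rose, led by Clu (1.95), Tcn2 (1.27) and Rbp4 (1.07), ligands or transport proteins that these receptors take up, and 0 fell.

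**Figure D4:**
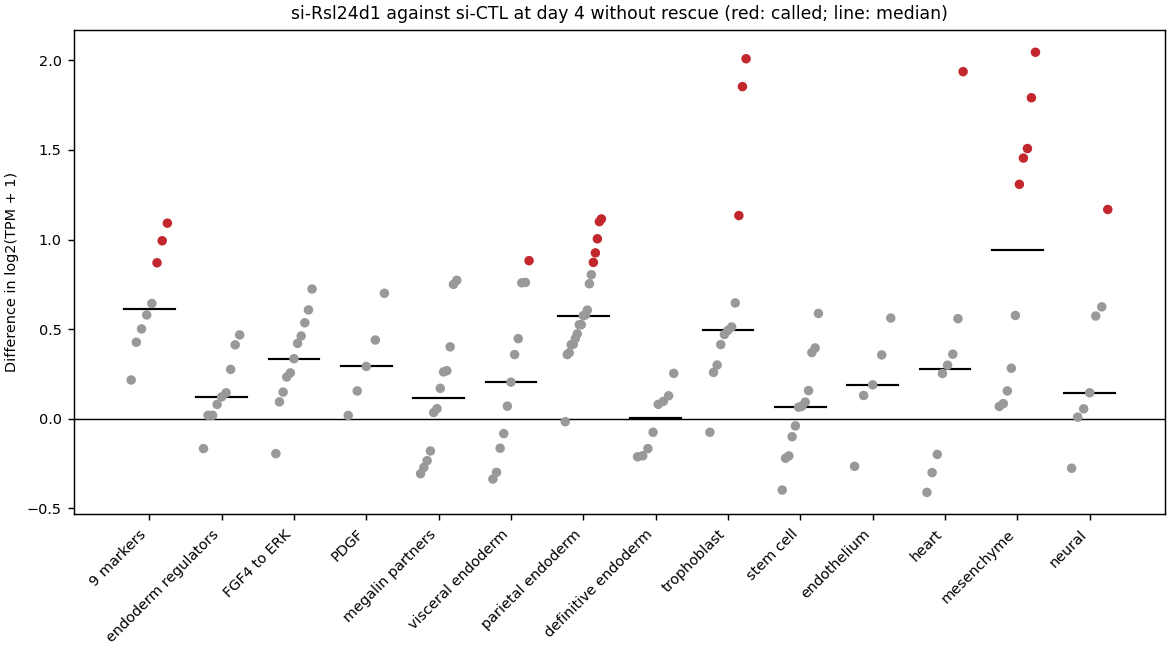
Differences between si-Rsl24d1 and si-CTL libraries at day 4 without rescue in log2(TPM + 1) on the vertical axis, for each tested gene (point) of the 9 markers and of 13 other lists along the horizontal axis. Red points are called genes and lines are medians. The markers (median 0.612) and the parietal endoderm list (0.576) lie above 0 as lists, but so does the mesenchyme list (0.943).

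Lists for other cell types, some of which express members, were read in the same comparison, and some of these lists moved. Of all tested genes 1.45% were called higher and 0.182% lower there. The part of these cell types in the values of the members was not tested. The mesenchyme list had 5 of 10 tested genes called higher and 0 lower (median 0.943), among them Col3a1 (2.05), Prrx1 (1.79) and Twist1 (1.51), and its summed level was 115 to 123 TPM in si-CTL and 228 to 302 TPM in si-Rsl24d1 libraries. The cardiac list had 1 of 8 called, Actc1 (1.94), with sums of 63.3 to 65.3 and 129 to 141 TPM. The trophoblast list had 3 of 11 called, Plac1 (2.01), Gata2 (1.85) and Hand1 (1.13), with sums of 80.1 to 86.7 and 126 to 145 TPM. For endothelium, where Sox7 and Sox17 are also expressed, 0 of 5 tested genes were called. The sums were 55.6 to 60.5 and 52.9 to 54.8 TPM. The mean log2(TPM + 1) over all 10 listed genes went the other way, 1.23 to 1.29 in si-CTL and 1.37 to 1.48 in si-Rsl24d1 libraries. Of these 10 genes 6 had means below 1 TPM. Definitive endoderm had 0 of 8 called with a median of 0.003 (sums 14.7 to 17.5 and 15.1 to 17.5 TPM), stem cell genes had 0 of 12 called (median 0.068), and the neural list had 1 of 7, Nes (1.17). The stem cell list summed to 7183 to 7380 TPM in si-CTL and 6237 to 7017 TPM in si-Rsl24d1 libraries at day 4 without rescue.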

How the data were processed

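Per the study's methods, transcripts were quantified by Salmon and summed to genes by tximport, and the authors deposited log2 of TPM with 1 added, as 1 table of 54242 symbols for 24 libraries. The submitters' processing notes name STAR 2.7.8a, Salmon 1.4.0 and a human build, whereas the samples are mouse. TPM is scaled by length and library total, so depth is unknown and no count model could be fitted. Groups were taken from the sample titles. All 8 group means were fitted with limma 3.58.1 in R 4.3.3 (intensity trend, 1 shared spread) over 16447 genes with a mean of at least 0.5, with two-sided tests and Benjamini-Hochberg adjustment within each of 12 comparisons and 4 interactions. Calls needed an adjusted p below 0.01 and over 1.8-fold, thresholds of the study. For 3 against 3 libraries the smallest exact permutation p is 0.1. The fit was tested on simulated data.

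The members, gene lists and tests were chosen with earlier results of these data known. Named genes are the members, Rsl24d1, at most 3 called genes per list, direction and comparison with the largest change, examples of lists with few calls, and the 3 genes most like each member. The examples Klf6, Nr2f2, Fgfr2, Pdgfc, Vldlr, Afp, Ttr, Apoa1, Fabp1, Foxa2 and Hnf4a were chosen after their values were seen. Sequences are from RefSeq (GRCm38.p6). The authors' own comparisons were not used.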

Additional observations from a re-analysis of the deposited data

Results flagged for a closer look

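The siRNA difference at day 4 differed from that at day 0 without rescue for 5 of 8 members, by limma's test of the interaction adjusted over all 16447 genes, of which 22.1% passed with a positive value. Cubn had 1.06 (adjusted p = 5.79e-04), Dab2 0.71 (adjusted p = 0.00503), Amn 0.62 (adjusted p = 0.00543), Gata6 0.61 (adjusted p = 0.00578) and Pdgfra 0.50 (adjusted p = 0.0011), all from limma. Only Cubn also exceeded the fold threshold. For Amn the value joins a difference of -0.41 at day 0 and one of 0.22 at day 4. For Gata6 the differences were 0.38 and 0.99. With 0.1 in place of 1 added to the TPM, its day 0 difference was 1.05. For Cubn, Dab2 and Pdgfra the day 0 differences were 0.03, 0.16 and 0.08. Gata6, Cubn and Pdgfra lay below 1 TPM at day 0, where adding 1 shrinks a difference. A larger difference on this scale at day 4 is therefore not by itself a larger ratio of TPM. Cubn was called with 0.1 added as well. Cubn and Pdgfra passed the filter through day 4. Rsl24d1 itself was reduced at day 0 (-1.95) and not at day 4 (-0.04).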

How the results depend on the processing

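The number of members called changed most with the scale and the fold threshold. With 0.1 in place of 1 added to the TPM it was 1 (from 0) for the siRNA at day 0 without rescue, 5 (from 3) for the siRNA at day 4 without rescue, 1 (from 0) with rescue, and 7 (from 3) for day 4 against day 0 in si-CTL cells both without and with rescue. These 7 were 6 higher and 1 lower in both cases. Without a fold threshold the numbers were 1, 6, 3, 8 (6 higher and 2 lower) and 7 (6 higher and 1 lower). There, the rescue difference in si-CTL cells at day 4 gave 1 (from 0), beside 1677 of 16447 tested genes. The siRNA by day interaction without rescue gave 5 (from 1), beside 5082. For day 4 against day 0 in si-Rsl24d1 cells with rescue, 0.1 added and no fold threshold each gave 6 (from 4). Median of ratios scaling gave 1 (Cubn, 0.85) in place of 0 for the siRNA by day interaction with rescue, beside 347 of all tested genes. It lowered the siRNA at day 4 without rescue to 2 (from 3), as did a fit of those groups alone. It also lowered day 4 against day 0 to 2 (from 3) in rescued si-CTL cells and to 5 (from 6) in si-Rsl24d1 cells without rescue. Over all genes, the siRNA at day 4 without rescue called 268 genes, 601 with 0.1 added, 166 with median of ratios scaling and 5087 without a fold threshold. At day 0 without rescue the numbers were 687, 1224 with 0.1 added and 5008 without a fold threshold. For the siRNA at day 4 with rescue they were 120, 170 and 965 in the same order. For day 4 against day 0 in si-CTL cells they were 2469, 3796 and 10010 without rescue, and 2559, 3884 and 9732 with rescue.

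Leaving out 1 library gave 2 to 3 called members for the siRNA at day 4 without rescue and 0 to 1 with rescue. For day 4 against day 0 it gave 2 to 3 in si-CTL cells without and 2 to 4 with rescue, 4 to 5 in si-Rsl24d1 cells with rescue, and for the siRNA by day interaction without rescue 1 to 2 (Dab2, 0.88, without day 0 si-Rsl24d1 replicate 3). In the other 10 comparisons and interactions the count stayed the same. Member by member, 945 of the values without a library kept their call or its absence, 7 lost a call, 8 gained one and 0 reversed. The causes were not tested.

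Replicate numbers did not pair the libraries. Same-numbered libraries had a mean residual correlation of -0.017 over 84 pairs, against 0.009 over 168 pairs of different numbers. With the replicate block the siRNA at day 4 without rescue still had 3 called members (263 genes in all), day 0 had 0 (685 genes), and no member count changed. No 2 libraries were identical. Depth is unknown, so counting error at levels near 1 TPM cannot be given.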
